A study of Homo sapiens with 4 samples.

Results

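The genes described are 35 genes of fatty acid and cholesterol synthesis, followed in RNA that was co-purified with transfected miR-491-5p or with a control miRNA in the human ovarian cancer line IGROV1-R10. By gene name, with no cut on a measured value, the members came from a list chosen with earlier results of these data known. Each was found by its position in the count table of 60554 genes, all 35 were matched, and 34 were among the 12662 genes measured here, which are those whose normalised count averaged at least 50. They cover 6 roles: acetyl-CoA supply and fatty acid synthase (3 genes), desaturases and elongases (7), acyl-CoA synthetases (3), regulators of the SREBP transcription factors (5), the mevalonate and isoprenoid steps (6), and the squalene and sterol steps (11, of which 10 were measured).

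There were 4 groups with 1 library each, all from IGROV1-R10 cells. The miR-491-5p pull-down held RNA kept on streptavidin beads from cells transfected with biotin-carrying miR-491-5p at 60 nM. The control pull-down came in the same way from cells given a biotin-carrying control miRNA at 60 nM, a worm sequence that the design text calls cel-miR-65. The miR-491-5p input and the control input were the 10% of each lysate set aside before the beads, which were left in the lysate for 4 h and washed 5 times. In the sentences on single genes the pull-downs are called beads. Debris and nuclei had been spun out of every lysate, and the RNA of 3 runs of the experiment was joined in each library. What limits the system as a model is that all groups are 1 line, that the miRNA is supplied from outside as a duplex, and that the 3 runs can no longer be told apart.

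Fatty acids are built from acetyl-CoA, which ATP citrate lyase draws from citrate, and are then lengthened by elongases, given double bonds by desaturases and coupled to coenzyme A for use in membranes and stores. Cholesterol is built from the same acetyl-CoA through mevalonate, isoprenoid units, squalene and a chain of sterol intermediates. Both routes are switched on by SREBP transcription factors, which leave the endoplasmic reticulum with their escort SCAP when sterols are low and are held there by the INSIG proteins when sterols are high, and cancer cells often run both routes at a high rate. miRNAs bind mRNAs mainly through bases 2 to 8, the seed, and can lower the level of the mRNA while holding it in the Argonaute complex.

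The miRNA on the beads is shown because every pull-down value is read against it, with its seed in capitals, 5′ to 3′, as RefSeq gives it on GRCh38.p14 (chromosome 9, 20716120 to 20716141, + strand, 22 bases). An mRNA that pairs with the whole seed holds the letters UCCCCAC. Seed matches in the members' transcripts were not analysed here.
hsa-miR-491-5p: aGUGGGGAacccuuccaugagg

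The total of gene counts was 61705443 on miR-491-5p beads, 62582646 on control beads, 59588552 in miR-491-5p input and 47679684 in control input. Of the 8 markers fixed for the ovarian carcinoma line, 6 were matched by position, and PAX8 and EPCAM were not. The keratin KRT18 had 32395, 33466, 41115 and 50861 counts in the same order, and KRT8 and KRT19 were also abundant. KRT7 had 120, 128, 181 and 206 counts and MUC16 had 337, 281, 148 and 84. WT1 had between 694 and 1302 counts. Of the 15 hepatocyte markers, 14 were matched by position, though the match of TF, at an overlap of 0.69, is uncertain. Normalised counts of the 14 markers summed to 34.8 on miR-491-5p beads, 24 on control beads, 26.1 in miR-491-5p input and 3666 in control input. The number of them listed at 0 was 5, 7, 7 and 0 in the same order, and ALB, which encodes serum albumin, had 0, 2, 5 and 1298 counts. The 8 fibroblast markers summed to 80.0, 79.0, 310 and 793, and the 5 adipocyte markers found, which would mark lipid-storing cells, to 5.66, 1.78, 2.09 and 2.57. Values that use the control input therefore rest on a library that also holds liver transcripts. What part these had in the members' input ratios and enrichments was not tested. The ratio between the pull-downs compares no input counts, though its size factors were taken over all libraries.

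Scaled by exon length and library to TPM, a level that can be compared between genes, the 34 measured members together made 3463 TPM on miR-491-5p beads, 3067 on control beads, 2923 in miR-491-5p input and 2915 in control input. Their summed normalised counts ran the other way, at 198682, 192691, 254878 and 253170 in the same order, so whether the group as a whole is higher or lower on the beads depends on the scale. In the inputs the order of levels was led by SQLE, squalene epoxidase, at 547 TPM after miR-491-5p and 543 after the control. MSMO1, a sterol methyl oxidase, came next at 310 and 291 TPM, followed by ACLY, ATP citrate lyase, at 230 and 254 TPM. ELOVL5, which lengthens polyunsaturated fatty acids, had 223 and 236 TPM, and SCD, the stearoyl-CoA desaturase that puts the first double bond into saturated fatty acids, had 209 and 218 TPM. The lowest measured members were LSS, lanosterol synthase, at 5.54 and 6.20 TPM, MVK, mevalonate kinase, at 5.86 and 5.54 TPM, and CYP51A1, lanosterol demethylase, at 2.26 and 2.45 TPM. Neighbours in this order such as ELOVL5 and SCD have no replicate spread to be told apart by. CYP51A1 shared 82.2% of its exon bases with exons of other genes, and reads over several genes were not counted, so its level is uncertain. FDPS and HSD17B7 have pseudogene copies elsewhere in the genome, and reads that fit several places were also left out, so their counts are uncertain too. The next largest such shares were 18.6% in FDPS, 17.9% in IDI1 and 15.0% in HMGCS1. EBP, the sterol isomerase, had 8, 22, 3 and 2 counts on miR-491-5p beads, on control beads, in miR-491-5p input and in control input, and was not measured.

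**Figure D1:**
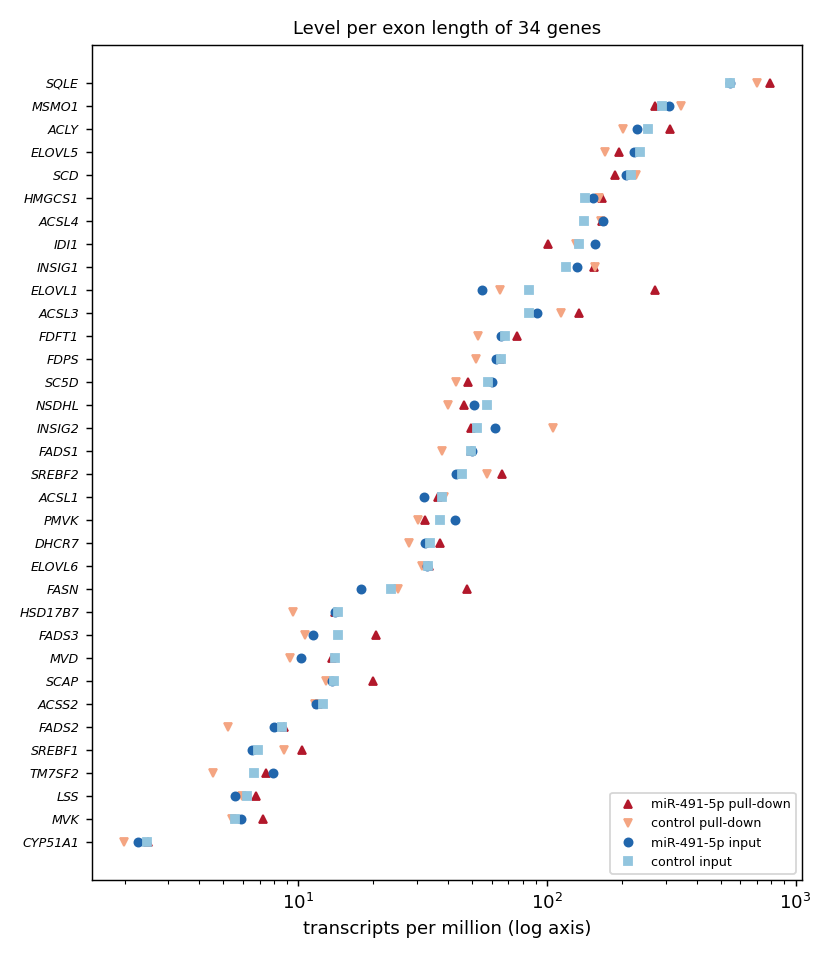
Level of each of the 34 measured members in TPM on a log axis, 1 point for each of the 4 libraries, with the genes ordered by the control input. SQLE stands highest at 543 TPM in the control input and CYP51A1 lowest at 2.45 TPM, and ELOVL1 on miR-491-5p beads lies apart from its other 3 points at 272 TPM.

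The question the design text sets is what RNA was enriched with miR-491-5p, for which it takes 2 ratios of miR-491-5p over control, that of the pull-downs and that of the inputs, and divides the one by the other. The elongase gene ELOVL1, the fatty acid synthase gene FASN and the desaturase family gene FADS3 were enriched at least 2-fold, and INSIG2, which encodes an anchor of the SREBP escort, was at least 2-fold lower. The other 30 measured members stayed within 2-fold, and the sterol steps held no gene past it. All log2 ratios are of normalised counts plus 1, and the ranges in parentheses are 95% counting intervals, which cover counting error alone, take reads as independent molecules although no molecular identifiers were used, and hold no error between experiments. A member was counted as higher or lower at 2-fold or more with an interval that excluded 0. Each group has 1 library, so the values for miR-491-5p against the control have no replicates behind them and no p-value.

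By this rule 3 of 34 members were higher in the enrichment, beside 4.46% of all 12662 genes, and 1 was lower, beside 5.32%. The members' median enrichment was 0.19, against 0.00 over all genes, and 22 members lay above 0. Of these, 17 had an interval above 0, or 50% of the members against 35.4% of all genes, while 8 members (23.5%) had an interval below it, against 35.3%. In the ratio between the pull-downs alone, 1 member was higher and 1 lower, beside 2.50% and 3.17% of all genes. The members' median there was 0.09, against 0.01 over all genes, with 23 above 0. None of these 4 counts lies more than 2 genes from what the background share would give. When total counts were used for scaling, the all-gene median shifted by 0.18 in the enrichment and by 0.16 between the pull-downs, and the split of calls over all genes was 888 higher and 445 lower with total counts, beside 565 and 673, and 522 and 263 between the pull-downs, beside 316 and 402. With total counts 26 members had an enrichment above 0, but 22 lay above the median of all genes under either scaling.

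**Figure D2:**
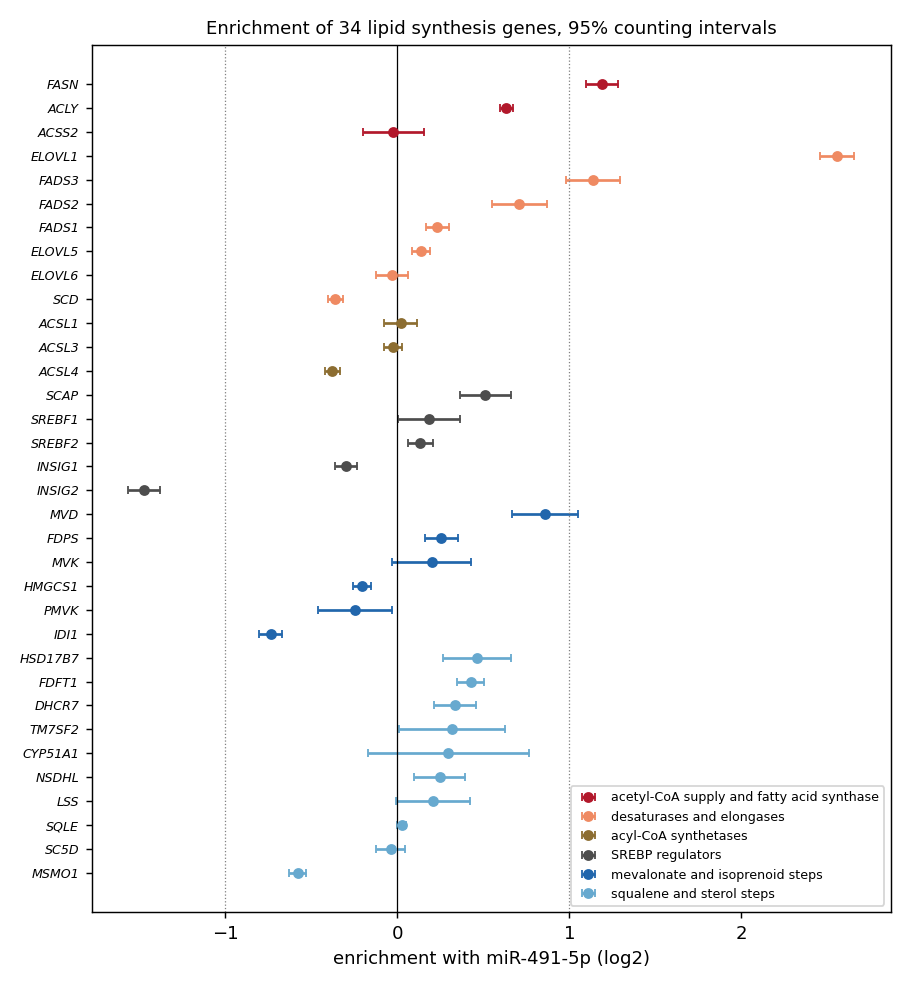
Enrichment of the 34 measured members on the log2 scale, grouped by role and coloured by it, with bars for the 95% counting interval and dotted lines at 2-fold. ELOVL1 at 2.56, FASN at 1.19 and FADS3 at 1.14 lie right of the upper dotted line and INSIG2 at -1.47 lies left of the lower one.

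Among the genes of acetyl-CoA supply and chain building, FASN stood highest. FASN (ENSG00000169710.7, chromosome 17, 82078333 to 82098332, - strand), the enzyme that assembles palmitate, had a normalised count of 5361 on miR-491-5p beads, 3098 on control beads, 3053 in miR-491-5p input and 4024 in control input. The miR-491-5p pull-down was the highest of the 4 libraries and the miR-491-5p input the lowest. Its enrichment was 1.19 (1.10 to 1.28), or 2.28-fold, at rank 350 of 12662 genes. Its pull-down ratio was 0.79 (0.73 to 0.85) and its input ratio -0.40 (-0.47 to -0.33). ACLY had 20235, 14330, 22612 and 24869 normalised counts in the same order of libraries, enriched by 0.63 (0.60 to 0.67) with a pull-down ratio of 0.50 (0.47 to 0.53). ACSS2, which makes acetyl-CoA from acetate, had an enrichment of -0.02 (-0.20 to 0.15), and lay above 0 with total counts, so no shared direction can be given for the 3 genes.

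Of the 7 desaturases and elongases, 5 had an enrichment above 0 with an interval that excluded it, beside 35.4% of all genes. ELOVL1 (ENSG00000066322.12, chromosome 1, 43363397 to 43368074, - strand), which lengthens saturated and monounsaturated very long chain fatty acids, had 8435 normalised counts on miR-491-5p beads, 2211 on control beads, 2585 in miR-491-5p input and 3991 in control input. Its pull-down value with miR-491-5p exceeded the other 3 libraries by more than any other member's did, and its 2 inputs differed the other way. The enrichment was 2.56 (2.46 to 2.66), or 5.89-fold, at rank 21 of 12662 genes, and the pull-down ratio was 1.93 (1.87 to 1.99), or 3.81-fold, at rank 22. ELOVL1 was the 1 member past 2-fold between the pull-downs in that direction. This ratio compares no input counts, though the size factors were taken over all libraries. With total counts the pull-down ratio of ELOVL1 was 2.09.

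FADS3 (ENSG00000221968.8, chromosome 11, 61873519 to 61892051, - strand), a member of the desaturase family that acts on sphingoid bases, had 1598, 911, 1352 and 1699 normalised counts on miR-491-5p beads, on control beads, in miR-491-5p input and in control input. Here the miR-491-5p pull-down lay above the control pull-down but below the control input. The enrichment was 1.14 (0.98 to 1.29), or 2.20-fold, and the pull-down ratio 0.81 (0.70 to 0.92), below 2-fold. FADS2 (chromosome 11, 61792980 to 61867354, + strand), a desaturase of polyunsaturated fatty acids, had 1194, 783, 1653 and 1774 normalised counts, an enrichment of 0.71 (0.55 to 0.87) and, between the pull-downs, a ratio of 0.61 (0.49 to 0.73). FADS1, FADS2 and FADS3 lie side by side on chromosome 11, and FADS1 and FADS2 share 5.57% and 4.89% of their exon bases with other genes' exons. The enrichments of these neighbours were 0.23 (0.17 to 0.30) for FADS1, 0.71 for FADS2 and 1.14 for FADS3. ELOVL5 had 0.14 (0.09 to 0.19) and ELOVL6, the elongase of palmitate, -0.03 (-0.12 to 0.06). SCD was the 1 gene of this role with an interval below 0, at -0.36 (-0.40 to -0.32), from 12500, 16643, 21105 and 21907 normalised counts in the same order.

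**Figure D3:**
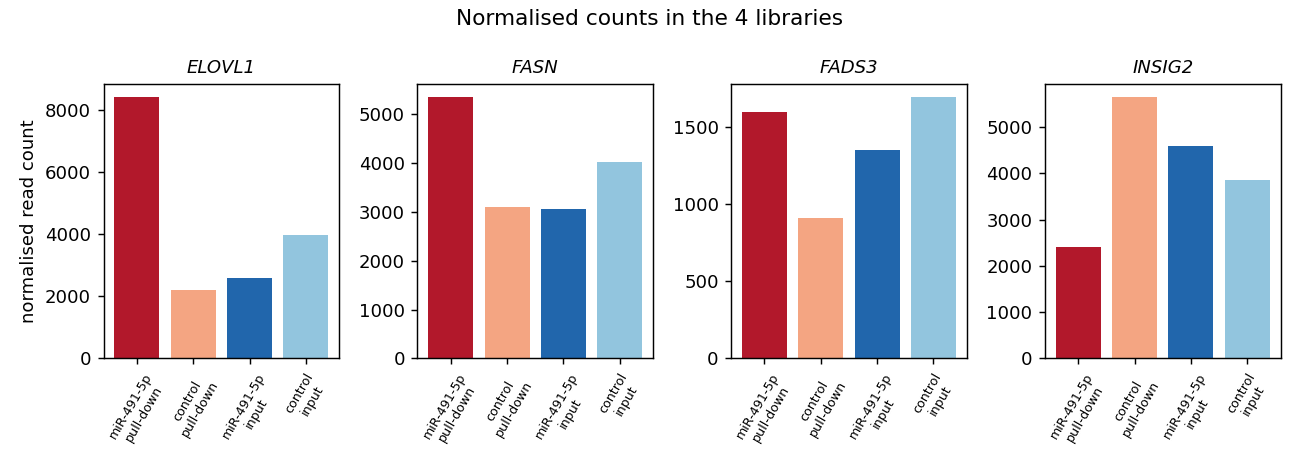
Normalised read count of ELOVL1, FASN, FADS3 and INSIG2, 1 bar for each library, with pull-downs left of inputs and miR-491-5p left of the control in each pair. For ELOVL1 and FASN the miR-491-5p pull-down is the highest bar (8435 and 5361), and for INSIG2 it is the lowest (2416).

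The acyl-CoA synthetases, which couple long fatty acids to coenzyme A, lay near 0 or below. ACSL4, which favours arachidonic acid, had 13282 normalised counts on miR-491-5p beads, 14349 on control beads, 20364 in miR-491-5p input and 16937 in control input. Its enrichment was -0.38 (-0.42 to -0.33), and its pull-down ratio was -0.11 (-0.14 to -0.08), so most of the value lay in the inputs. ACSL1 had an enrichment of 0.02 (-0.07 to 0.11) and ACSL3 of -0.02 (-0.08 to 0.03). With total counts the enrichment of ACSL3 and the pull-down ratio of ACSL4 lay above 0.

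Among the SREBP regulators, the 2 INSIG genes lay below 0 and the other 3 genes at or above it. INSIG2 (ENSG00000125629.14, chromosome 2, 118088452 to 118110997, + strand) had 2416 normalised counts on miR-491-5p beads, 5656 on control beads, 4586 in miR-491-5p input and 3866 in control input. It was lowest in the miR-491-5p pull-down and highest in the control pull-down, with the inputs between. Its enrichment was -1.47 (-1.56 to -1.38), at rank 12417 of 12662, and its pull-down ratio of -1.23 (-1.29 to -1.16) made it the 1 member past 2-fold in that direction between the pull-downs. INSIG1 had 7013, 7762, 9050 and 8150 normalised counts, an enrichment of -0.30 (-0.36 to -0.23) and, between the pull-downs, a ratio of -0.15 (-0.19 to -0.10). With total counts the pull-down ratio of INSIG1 lay above 0, while that of INSIG2 stayed below it.

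SCAP, the escort of the SREBP proteins, had 1556 normalised counts on miR-491-5p beads, 1101 on control beads, 1623 in miR-491-5p input and 1638 in control input. The control pull-down stood below the other 3, and the enrichment was 0.51 (0.36 to 0.66). SREBF1, the gene of the SREBP that mainly drives fatty acid genes, had 1029, 958, 984 and 1041 normalised counts and an enrichment of 0.18 (0.00 to 0.36). SREBF2, the gene of the SREBP that mainly drives cholesterol genes, had 6143, 5886, 6161 and 6480 normalised counts and an enrichment of 0.13 (0.06 to 0.21). These 2 genes were among the members whose 4 libraries lay closest together in normalised counts. Each holds a hairpin of the miR-33 family in an intron, and both hairpin loci, MIR33A in SREBF2 (chromosome 22, 41900944 to 41901012) and MIR33B in SREBF1 (chromosome 17, 17813836 to 17813931), had 0 counts in all 4 libraries, which allows up to 3 counts in each.

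The 6 mevalonate and isoprenoid genes split evenly, with 3 enrichments above 0 and 3 below, and none reached 2-fold. MVD, the decarboxylase that makes isopentenyl pyrophosphate, had 796, 594, 915 and 1241 normalised counts on miR-491-5p beads, on control beads, in miR-491-5p input and in control input. The inputs differed by about as much as the pull-downs, in opposite directions, and the enrichment was 0.86 (0.67 to 1.05), or 1.04 with total counts, which is past 2-fold. IDI1, the isomerase of the isoprenoid units, had 4478, 6387, 10547 and 9029 normalised counts in the same order and an enrichment of -0.74 (-0.80 to -0.67), the second lowest of the members. PMVK, phosphomevalonate kinase, had 513, 528, 1027 and 892 normalised counts and an enrichment of -0.25 (-0.46 to -0.03). FDPS, farnesyl pyrophosphate synthase, had 0.26 (0.16 to 0.35), MVK 0.20 (-0.03 to 0.43), and HMGCS1, the cytosolic HMG-CoA synthase, -0.21 (-0.26 to -0.15).

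Of the 10 measured genes of the squalene and sterol steps, 8 had an enrichment above 0, beside 50.1% of all genes. Their median was 0.27 and their range ran from -0.58 to 0.46. With total counts 9 lay above 0, beside 8082 of 12662 genes, but 2 lay below the median of all genes under either scaling. HSD17B7, a sterol ketoreductase, was the highest, with 720 normalised counts on miR-491-5p beads, 532 on control beads, 1093 in miR-491-5p input and 1115 in control input, and an enrichment of 0.46 (0.27 to 0.66). FDFT1, squalene synthase, had 0.43 (0.35 to 0.51) and DHCR7, which makes cholesterol in the last step of one branch, 0.34 (0.22 to 0.46). TM7SF2, a sterol reductase, had 313, 210, 506 and 424 normalised counts in the same order. TM7SF2 was higher with miR-491-5p in both fractions, so its pull-down ratio of 0.57 (0.34 to 0.80) exceeded its enrichment of 0.32 (0.01 to 0.62).

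MSMO1 was the lowest of this role, with 9748, 13584, 16902 and 15773 normalised counts on miR-491-5p beads, on control beads, in miR-491-5p input and in control input. Its enrichment was -0.58 (-0.63 to -0.53). SQLE, the most abundant member, had 41961, 40813, 44340 and 43874 normalised counts, and its enrichment of 0.02 (0.00 to 0.05) is narrow in counting error. In these normalised counts SQLE therefore differed little between any of the 4 libraries. Its TPM was 788 on miR-491-5p beads and 698 on control beads, against 547 and 543 in the matching inputs. NSDHL, a sterol dehydrogenase, had an enrichment of 0.25 (0.10 to 0.39), and SC5D, the sterol desaturase, -0.04 (-0.12 to 0.05). LSS at 0.21 (-0.01 to 0.42) and CYP51A1 at 0.30 (-0.17 to 0.76) had intervals that reached below 0.

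The inputs show whether the level of a transcript in the lysate differed after miR-491-5p. No member was 2-fold higher or 2-fold lower in the miR-491-5p input, beside 0.727% and 0.513% of all genes, and the members' median was -0.05, against -0.01 over all genes. The interval lay above 0 for 10 members (29.4%) and below it for 11 (32.4%), close to the 29.0% and 29.5% of all genes. In pooled lysates, fewer cells with a transcript and less of it in each cell cannot be told apart. ELOVL1 had the lowest input ratio, -0.63 (-0.70 to -0.55), or 64.8% of the control input. MVD followed at -0.44 (-0.57 to -0.31), or 73.8%, FASN at -0.40, or 75.9%, and FADS3 at -0.33 (-0.44 to -0.22), or 79.6%. The highest were ACSL4 at 0.27 (0.23 to 0.30), TM7SF2 at 0.25 (0.05 to 0.46) and INSIG2 at 0.25 (0.18 to 0.31). The summed hepatocyte markers that set the control input apart, 3666 normalised counts, stand beside all of these values.

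The pull-down ratio and the input ratio compare counts of different libraries and share only the scaling, so they were set side by side. The 4 members with the lowest input ratio, ELOVL1, MVD, FASN and FADS3, each had a pull-down ratio above 0. A pull-down ratio above 0 together with an input ratio below 0, each with its interval excluding 0, was found in 7 of 34 members (20.6%), against 12.6% of all genes. These were ACLY, ELOVL1, ELOVL5, FADS3, FASN, MVD and SREBF2. The converse held for 6 members (17.6%), against 14.1% of all genes, namely ACSL4, HMGCS1, IDI1, INSIG1, INSIG2 and MSMO1. With total counts the pull-down ratios of ACSL4, HMGCS1 and INSIG1 lay above 0. Both counts lie within 3 genes of what the shares over the whole table would give.

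**Figure D4:**
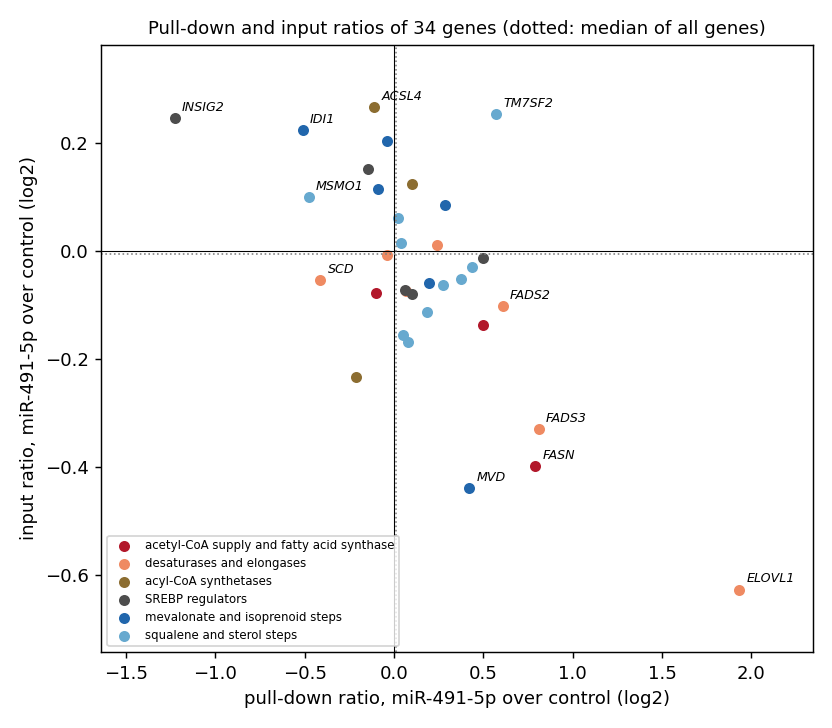
Input ratio (y axis) against pull-down ratio (x axis) of the 34 measured members, both miR-491-5p over control on the log2 scale, coloured by role, with dotted lines at the medians of all genes. ELOVL1 lies alone at the lower right (1.93 and -0.63), with FASN, FADS3 and MVD between it and the centre, and INSIG2 at the upper left (-1.23 and 0.25).

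Pull-down was then compared with the input of the same transfection, which asks which members the beads held at all. In normalised counts most members were less abundant on the beads than in the lysate with either miRNA, while their summed TPM was higher on the beads. With miR-491-5p the median of the members was -0.47, against -0.15 over all genes, and with the control it was -0.57, also against -0.15. With miR-491-5p 30 of 34 members lay below 0, and with the control 33 of 34, where 60.2% and 57.9% of all genes did. Relative to the median of all genes, 26 and 28 members lay below it. With total counts, which shifted the all-gene median by 0.32 and 0.14, 23 and 28 members lay below 0, and 26 and 28 still lay below the median of all genes.

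At 2-fold, ELOVL1 was the 1 member higher on miR-491-5p beads than in their input and IDI1 the 1 member lower, beside 5.34% and 4.96% of all genes. With total counts IDI1 was at -0.92 and no longer counted, FASN at 1.13 was counted as higher, and the split over all genes was 1284 higher and 130 lower, beside 676 and 628. With the control miRNA no member was higher and 4 were lower, FADS2, HSD17B7, MVD and TM7SF2, beside 8.61% and 10.0% of all genes. With total counts FADS2 alone stayed past 2-fold, and over all genes 1373 were higher and 820 lower, beside 1090 and 1268. FADS2 had a pull-down over input of -0.47 (-0.57 to -0.37) with miR-491-5p, against -1.18 (-1.30 to -1.06) with the control. HSD17B7 had -0.60 (-0.73 to -0.47) and -1.07 (-1.22 to -0.92), MVD -0.20 (-0.33 to -0.07) and -1.06 (-1.20 to -0.92), and TM7SF2 -0.69 (-0.88 to -0.50) and -1.01 (-1.25 to -0.77).

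In the cholesterol branch, all 6 mevalonate and isoprenoid genes and all 10 measured sterol genes had a pull-down below input with both miRNAs. Each interval lay below 0. Taken singly, such an interval was found in 51.1% of all genes on miR-491-5p beads and 49.6% on control beads. The share of all genes with both was not computed. With total counts, however, MVD, MVK and SQLE lay above 0 with miR-491-5p and SQLE with the control. The medians were -0.52 and -0.63 for the mevalonate genes on miR-491-5p and control beads and -0.53 and -0.79 for the sterol genes. IDI1 was lowest with miR-491-5p, at -1.24 (-1.28 to -1.19), and had -0.50 (-0.55 to -0.45) with the control. The SREBP regulators lay closer to 0, with medians of -0.06 and -0.12, and SREBF2 had values of 0.00 (-0.05 to 0.04) and -0.14 (-0.19 to -0.09). The desaturases and elongases had medians of -0.58 and -0.85.

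Bead ratios of opposite sign with the 2 miRNAs, each with its interval excluding 0, were found in 4 members. ELOVL1 had 1.71 (1.64 to 1.77) with miR-491-5p, against -0.85 (-0.93 to -0.78) with the control, and FASN had 0.81 (0.75 to 0.87) and -0.38 (-0.45 to -0.31). FADS3 had 0.24 (0.14 to 0.34) and -0.90 (-1.02 to -0.78). INSIG2 ran the other way, with -0.92 (-0.99 to -0.86) and 0.55 (0.49 to 0.61), and was the 1 member above its input with the control under this scaling. The enrichment of a gene is the first of these values minus the second. Such opposite pairs made up 11.8% of the members and 14% of all genes.

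**Figure D5:**
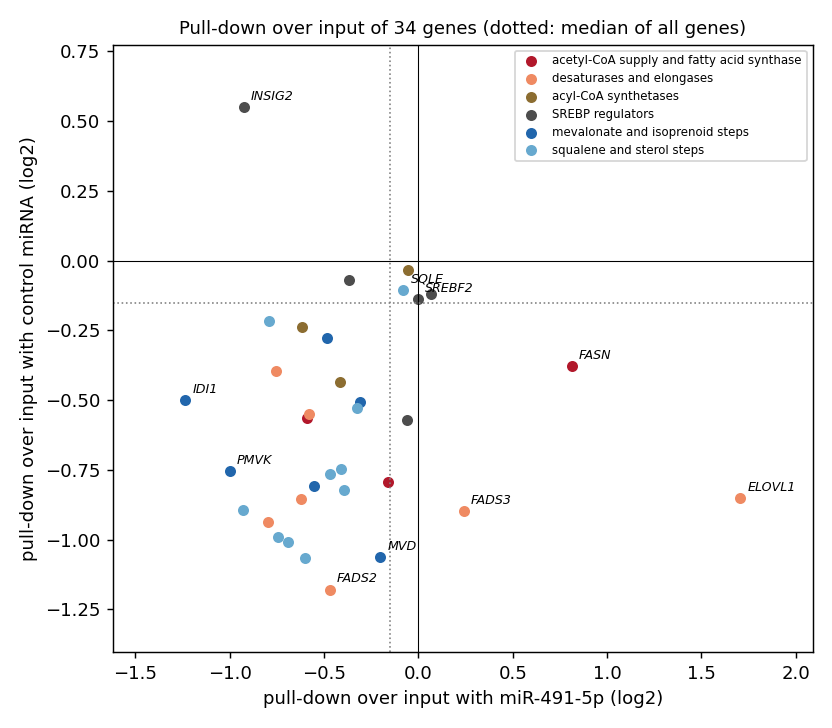
Pull-down over input with the control miRNA (y axis) against the same with miR-491-5p (x axis) for the 34 measured members, on the log2 scale and coloured by role, with dotted lines at the medians of all genes. Most genes lie below 0 on both axes, ELOVL1, FASN and FADS3 lie to the lower right, and INSIG2 to the upper left.

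The 2 pull-downs were tested against the 2 inputs over both transfections with edgeR's quasi-likelihood test, with the transfection as a block, which leaves 1 residual degree of freedom and treats the 2 miRNAs as repeats of 1 bead step. At 2-fold and an adjusted p under 0.05 no member was higher or lower, beside 4.92% of all genes in each direction. Without the limit on size, 6 members were lower at that adjusted p and none higher, beside 10.4% and 6.48% of all genes, and 15 members were lower at an unadjusted p under 0.05 (44.1%, against 21.4% of all genes). The 6 genes were SC5D, NSDHL, PMVK, ELOVL5, HSD17B7 and IDI1, of which SC5D, NSDHL and HSD17B7 act on sterols and PMVK and IDI1 in the mevalonate route. These calls depend on the scaling: with TMM factors taken over the tested genes, or with DESeq2, 1 of the 6 was called, SC5D, and with library sizes alone none. In the same order, 10, 9 and 6 members were lower at an unadjusted p under 0.05. Shares of all genes were not computed for these settings, so no excess over all genes can be read from these counts. The all-gene median difference was 0.02, 0.02 and 0.10 in the same order, against -0.10 in the fit as reported.

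SC5D had 3313 normalised counts on miR-491-5p beads and 3260 on control beads, against 6315 and 6052 in the matching inputs. Both pull-downs lay well below both inputs, and the log2 difference was -0.88 (edgeR, adjusted p = 0.0226). NSDHL had 1142 and 1083 normalised counts on miR-491-5p and on control beads, against 1915 and 2153 in the matching inputs, with a difference of -0.84 (edgeR, adjusted p = 0.0308). PMVK differed by -0.85 (edgeR, adjusted p = 0.0389) and ELOVL5 by -0.84 (edgeR, adjusted p = 0.0392), from 9230 and 8826 normalised counts in the pull-downs against 16036 and 16882 in the inputs. HSD17B7 at -0.81 and IDI1 at -0.84 each had an adjusted p of 0.0462 in the same edgeR fit. In none of the 6 did the pull-downs overlap the inputs, which adds nothing to the test that picked them.

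Exon length was the feature of the genes that could be read beside the bead ratio. The measured members' exons summed to a median of 5210 bases, between 1280 in PMVK and 11026 in FADS2, against 4865 over all genes. As a description across genes, which are not replicates and share the same libraries, length and the pull-down over input with miR-491-5p had a Pearson r of 0.20 and a Spearman rho of 0.43 over 34 members, and 0.19 and 0.25 over 12662 genes. With the control miRNA the values were 0.12 and 0.17 over the members, and 0.21 and 0.29 over all genes, so the members stood above all genes in rho with one miRNA and below with the other.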

How the data were processed

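The authors deposited raw read counts for each gene, as whole numbers without scaling, in 1 library for each of 4 groups, taken from the sample titles. Reads were counted by the authors with featureCounts 1.5.0-p1 on GENCODE release 24, per the file headers, without regard to strand and leaving out marked duplicates and reads over several genes, so overlapping and antisense genes are uncertain. STAR, GRCh38 and DESeq2 1.10.1 are further named, per the submitters' processing notes. Here counts were scaled with DESeq2 1.42.0 size factors (1.24, 1.13, 0.957 and 0.778 for the miR-491-5p pull-down, the control pull-down, the miR-491-5p input and the control input). Intervals are 95% and add 0.5 to each count. Beads against inputs were tested with edgeR 4.0.16 in R 4.3.3 (glmQLFit and glmQLFTest, Benjamini-Hochberg over 12662 genes, TMM factors over all genes). That p measures the spread between these 4 libraries only. Genes were matched by position to RefSeq on GRCh38.p14, where the overlap reached 0.5 of both spans joined and beat the next gene by 0.2. The calculations were tested on simulated counts. Every member is accounted for; those given with every library were, by rule, the members called, the 3 highest and 3 lowest in the enrichment, the input ratio and the mean bead ratio, and SREBF1, SREBF2, SCAP and INSIG1, and ACLY, SCD, SQLE and ELOVL5 were added after their values were seen. The members and lists were chosen with earlier results of these data known. Planned seed matches in transcripts were not analysed here.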

Additional observations from a re-analysis of the deposited data

Results flagged for a closer look

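In 4 members (11.8%, against 14% of all genes) the pull-down over input lay on opposite sides of 0 with the 2 miRNAs. Each interval excluded 0. These are the same 4 members as called in the enrichment, which is the difference between these 2 ratios. The log2 value with miR-491-5p and then with the control was 1.71 and -0.85 for ELOVL1, 0.81 and -0.38 for FASN, 0.24 and -0.90 for FADS3, and -0.92 and 0.55 for INSIG2. With 1 library in each group the difference was not tested.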

How the results depend on the processing

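The alternatives were scaling by total counts or by edgeR's TMM factors, a pseudocount of 5, no minimum count or one of 200, a call at 1.5-fold, and, for the beads against the inputs, edgeR without the block, without TMM and with the higher minimum, and DESeq2; TMM factors over the tested genes only were added after the data had been seen. No called value changed sign. A call at 1.5-fold gave 6 members higher and 2 lower in the enrichment (13.2% and 14.04% of all genes), 4 higher between the pull-downs (10.03%), 1 lower between the inputs (ELOVL1; 3.03%), 2 higher and 13 lower on the miR-491-5p beads (12.5% and 20.8%) and 16 lower on the control beads (26.9%). Without a minimum, EBP made 2 members lower between the pull-downs and 1 higher on the control beads. With total counts 2 members were higher and 0 lower on the miR-491-5p beads and 1 lower on the control beads, where HSD17B7 was at -0.93, MVD at -0.92 and TM7SF2 at -0.87; TM7SF2 was also under 2-fold with TMM factors (-0.97) and a pseudocount of 5 (-0.99). In the test of beads against inputs, 6 members were lower at an adjusted p under 0.05 in the edgeR fit as reported. The number was 6 without the block (of which 4 were in common), 4 with the higher minimum and 1 with TMM factors over the tested genes. It was 1 with DESeq2 and 0 without TMM. Without TMM 6 were lower at an unadjusted p under 0.05, with no share of all genes computed. These member counts have no limit on size, and in the fit as reported 10.4% of all genes were lower at that adjusted p. At 2-fold and that adjusted p, the counts over all genes were 623 higher and 623 lower as reported. They were 885 and 201 without TMM and 707 and 335 with TMM factors over the tested genes. With DESeq2 they were 693 and 310, and with the higher minimum 302 and 516. Leaving out a replicate was not possible, since each group has 1 library. The block pairs each pull-down with the input of its own transfection. Without it 462 genes were higher and 537 lower at 2-fold and an adjusted p under 0.05. The widest intervals were those of EBP and CYP51A1; reads that CYP51A1 shares with other genes were not counted, and what part depth has in its low count was not tested.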

Other observations

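A further list of 44 genes of the same routes was followed in the same way. Of these, 42 were matched and 34 measured, and their median enrichment was -0.08. In the enrichment 1 was higher and 2 were lower, beside 4.46% and 5.32% of all genes. By the 2-fold rule TECR, the reductase that ends each round of chain elongation, was higher, with 823 normalised counts on miR-491-5p beads, 402 on control beads, 1055 in miR-491-5p input and 1096 in control input, an enrichment of 1.09 (0.88 to 1.29) and, between the pull-downs, a ratio of 1.03 (0.87 to 1.19). ERLIN1, which takes part in the turnover of endoplasmic reticulum proteins, was lower at -1.56 (-1.65 to -1.48). ACACA, acetyl-CoA carboxylase, was lower at -1.11 (-1.17 to -1.06), and at -1.25 between the pull-downs.

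On the beads ACACA had the largest difference of the genes listed for these routes. It had 84736 normalised counts on miR-491-5p beads and 201298 on control beads, against 6515 and 7154 in the matching inputs, and differed by 4.28 on the log2 scale between pull-downs and inputs (edgeR's quasi-likelihood test, adjusted p = 0.000395). Its protein carries biotin, as background. HACD4, a dehydratase of chain elongation, was also higher on the beads, by 2.86 (edgeR, adjusted p = 0.00293). It had 294 and 231 normalised counts on miR-491-5p and on control beads, against 53.3 and 23.1 in the matching inputs. HACD4 was also called higher in the miR-491-5p input than in the control input, at 1.17 (0.40 to 1.94), beside 0.727% of all genes. That ratio rests on 51 and 18 counts. ACAT2, the cytosolic thiolase that starts the mevalonate route, was lower, by -1.06 (edgeR, adjusted p = 0.0178). These calls, 2 higher and 1 lower, stand beside 4.92% of all genes in each direction. On control beads alone ERLIN1 was also higher than in the input, at 1.35, and TECR at -1.44, ACAT2 at -1.32 and SLC25A1 at -1.18 were lower. With ACACA and HACD4 that made 3 higher and 3 lower, beside 8.61% and 10.0% of all genes.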
